A study of Mus musculus with 2 samples.

Results

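Integrins are the receptors by which skin keratinocytes hold on to the matrix beneath them. The genes described here encode 9 integrin subunits of the skin epithelium, Itga2, Itga3, Itga6, Itgav, Itgb1, Itgb4, Itgb5, Itgb6 and Itgb8, which were picked by symbol from the 31053 genes of the feature table, each with a single entry. Their unique molecular identifiers (UMIs, 1 per captured mRNA molecule) were counted in back skin of 1 control and 1 miR-205-induced mouse, across skin cell populations and between both mice. The study induced miR-205, a microRNA of skin epithelium, to ask how it alters adhesion and actin genes and hair growth.

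Both mice carried a Krt14-H2BGFP allele, which marks keratinocyte nuclei, and both were taken at P53 (postnatal day 53). The induced mouse carried Krt14-rtTA, which drives doxycycline-dependent expression in keratin 14 keratinocytes, and pTRE2-miR-205. It ate doxycycline chow for 4 days from P49. The protocol text and the methods have the control on doxycycline as well, whereas its sample characteristics call it untreated. The labels give C57BL/6 as the strain, although the methods say that the transgene was injected into FVB mice. The methods say that the mice were littermates whose cells were run on the same chip. Sorting on H2BGFP and surface proteins set the input at 3 parts epidermal, 5 parts hair follicle and 2 parts dermal cells, so the numbers of cells per population follow the sort. The hair follicle stem cell (HF-SC) gate in the methods uses integrin α6 protein, the product of Itga6, together with CD34, so the level of Itga6 in follicle cells is not independent of the sort.

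The control library held 55465594 UMIs in 4545 barcodes and the induced library 49733560 UMIs in 4264. The filter kept 3936 and 3628 cells, with medians of 12198.5 and 11752.5 UMIs, and 5 kept barcodes occurred in both libraries. With 1 library per mouse there was no test of the treatment, no replicate check and no measure of the spread between mice. Intervals below are exact 95% Poisson intervals for levels and ratios and Clopper-Pearson intervals for shares, and they cover counting error only. Levels are UMIs of the gene per 1000000 UMIs of the population (CPM), and log2 ratios are induced over control. Transcripts were counted at their 3′ ends, so levels are compared between populations and not between genes.

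Clusters were named from marker genes, and the members were withheld from clustering. The named populations were HF-SC-like (356 control and 347 induced cells), hair germ-like (198 and 210), inner bulge-like (167 and 378), upper hair follicle (upper HF)-like (372 and 314), sebaceous gland-like (90 and 114), basal interfollicular epidermis (IFE basal)-like (718 and 463), IFE suprabasal-like (415 and 356), cycling-like (140 and 83), antigen-presenting-like (80 and 79), dermal papilla-like (142 and 222) and fibroblast-like (136 and 185) cells. Another 3 keratinocyte clusters stayed unnamed. These were cluster 1 (480 and 315 cells, led by Gjb2), cluster 3 (415 and 195, led by Ntrk2) and cluster 7 (151 and 219), which had 2 markers each of HF-SCs (Postn and Lhx2), hair germ (Gli1 and Cd200) and upper HF (Gata6 and Lgr6) raised. All 8 HF-SC markers had UMIs in the HF-SC-like cells of both libraries, with a summed level of 12702 CPM in the control and 16351 CPM in the induced library. The keratinocyte pool joins all epithelial populations and the unnamed keratinocyte clusters, with 3502 control and 2994 induced cells.

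An integrin is a pair of 1 α and 1 β subunit, and the pair sets the ligand. In basal keratinocytes α6β4 binds laminin-332 and anchors keratin filaments at hemidesmosomes, while α3β1 and α2β1 bind laminin and collagen and connect to actin at focal adhesions. The αv subunit pairs with β5, β6 or β8, receptors for RGD-containing proteins such as vitronectin, and αvβ6 and αvβ8 release active TGF-β from its latent complex. Epidermal cells lose most integrins as they leave the basement membrane.

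A microRNA pairs with mRNAs through its seed, bases 2 to 8. The mature miR-205 is shown because its seed sets which of the members hold a complement in the 3′ untranslated region (UTR). It lies at chr1:193507503-193507524 on the minus strand of GRCm38.p6, and the sequence is that of RefSeq with the seed in capitals.
mmu-miR-205-5p: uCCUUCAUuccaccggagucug

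The longest annotated 3′ UTR of each member (NCBIM37) was searched on the transcript strand for ATGAAGG, the complement of the seed, and for TGAAGGA, which shares 6 of its bases and ends in an A opposite base 1 of the microRNA. Among the 9 genes, 3 held a match. The windows below end at or just past the match, which is in capitals.
Itga6, chr2:71691972-71691994, plus strand: aacaacaccacagcaATGAAGGc
Itgb6, chr2:60438393-60438415, minus strand: ccagtcattcagggcATGAAGGt
Itgb6, chr2:60438110-60438132, minus strand: agaaaaatctatttccTGAAGGA
Itgb8, chr12:120396988-120397010, minus strand: tctactaccttctttATGAAGGt

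The match in Itga6 begins at base 289 of the UTR, those in Itgb6 at bases 142 and 426, and that in Itgb8 at base 4595. No match was found in the annotated UTRs of Itga2, Itga3, Itgav, Itgb1, Itgb4 or Itgb5. Only ATGAAGG and TGAAGGA were searched for, so a missing match does not show that an mRNA is unbound. The paper lists Itgav among the mRNAs bound by the microRNA in its capture of microRNA targets. ATGAAGG occurred in the UTRs of 10.3% of 20007 genes and TGAAGGA in 13.8%. Long UTRs hold it more often, and among UTRs of like length ATGAAGG occurred in 12.3% for Itga6, 21% for Itgb6 and 31.5% for Itgb8. TGAAGGA occurred in 27.7% of UTRs of like length to that of Itgb6. Such a match is a description of the sequence and not a binding site. The mature microRNA is not captured in 3′ mRNA counts, so the induction itself was not checked here. The native host transcript (4631405K08Rik, which RefSeq names Mir205hg) stood at 110.2 CPM in the control and 117 CPM in the induced keratinocyte pool. Populations differed in direction. The host transcript went from 193 to 121 CPM in HF-SC-like cells (log2 ratio -0.67, -0.85 to -0.49) and from 119 to 112 CPM in hair germ-like cells. In IFE basal-like cells it went from 30.5 to 51.0 CPM (0.74, 0.53 to 0.95).

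UMIs of the subunits came mainly from keratinocytes, least so for Itgb5. The keratinocyte pool also held most kept cells, 3502 of 3936 in the control and 2994 of 3628 in the induced library. Its share of the UMIs of all genes was not computed. The percentages therefore do not by themselves show a preference for keratinocytes, least of all for Itgb8, Itgb1 and Itgav. The pool held 98.8% of the UMIs of Itga2, 99.0% of Itga3, 98.5% of Itga6, 98.0% of Itgb4, 99.5% of Itgb6, 92.8% of Itgb8, 91.5% of Itgb1 and 90.3% of Itgav, but 64.9% of Itgb5. Over all kept cells the counts ran from 655 control and 736 induced UMIs for Itgb8 to 15521 and 11148 for Itgb1, so ratios are known most finely for Itgb1 and Itga6. Levels in the 14 populations with at least 30 cells in each library were put in order by the lower of both libraries, and neighbours in that order are called separate where their ranges over both libraries do not overlap.

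**Figure D1:**
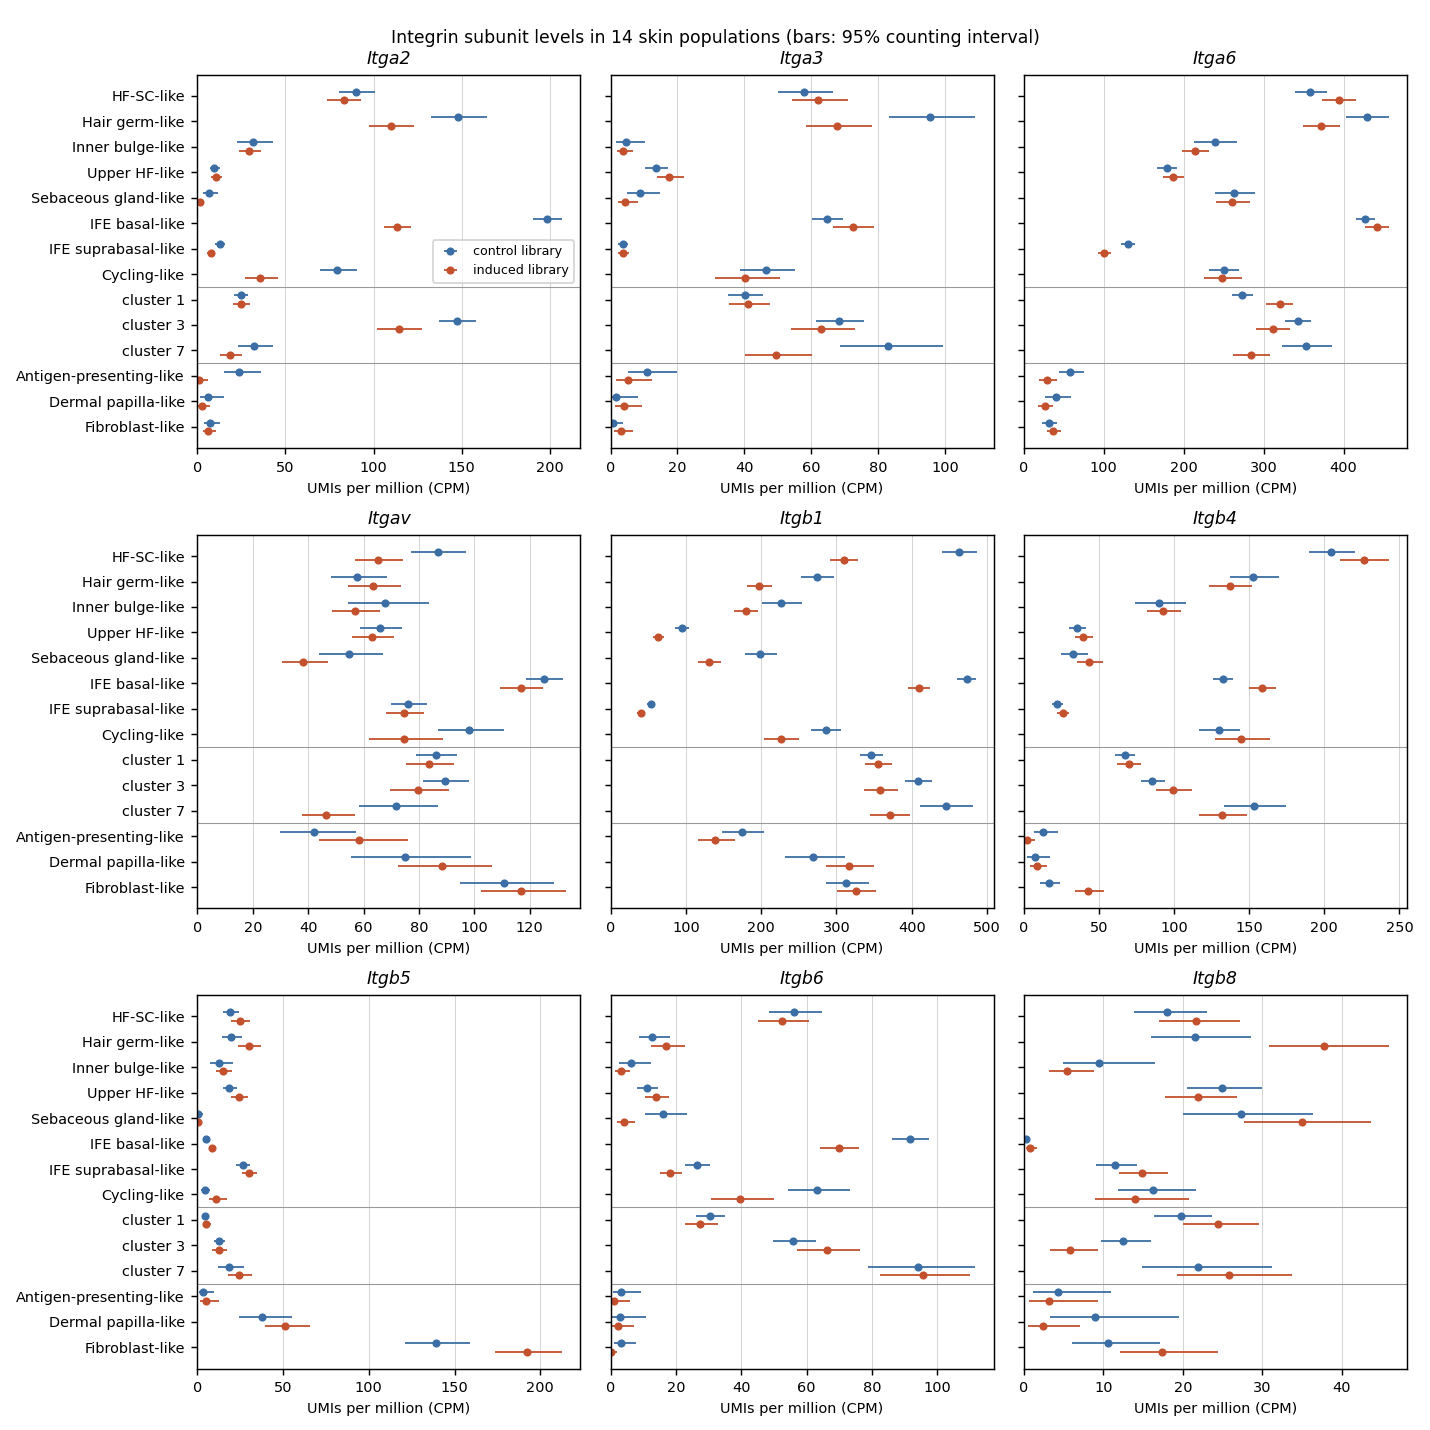
Level of each integrin subunit in 14 skin populations, in CPM on a linear axis, with the control library in blue and the induced library in orange and 95% counting intervals as bars. Itgb4 was highest in HF-SC-like cells (204.5 and 226 CPM), Itgb5 in fibroblast-like cells (139 and 192 CPM), and Itgb8 was near 0 in IFE basal-like cells.

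Itga6 (chr2:71786886-71858427, GRCm38.p6) and Itgb4 (chr11:115974725-116008412) encode the hemidesmosomal pair, and both were high in cells that line the basement membrane. Itga6 stood at 427 CPM in control and 442 CPM in induced IFE basal-like cells, at 429 and 372 CPM in hair germ-like cells and at 358 and 394 CPM in HF-SC-like cells. These ranges overlap, so the leading populations are not separated. IFE suprabasal-like cells had 130.1 and 100.7 CPM, the lowest level of Itga6 among keratinocytes, and dermal papilla-like cells had 40.4 and 26.5 CPM.

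Itgb4 followed another order. It stood at 204.5 CPM (interval 189.8 to 220.1) in control and 226 CPM (211 to 243) in induced HF-SC-like cells, separate from the next population in both libraries. IFE basal-like cells had 132 and 159 CPM, inner bulge-like cells 89.9 and 92.7 CPM, and IFE suprabasal-like cells 22.1 and 26.1 CPM. The number of Itga6 UMIs per Itgb4 UMI was 1.75 in control and 1.74 in induced HF-SC-like cells, 3.22 and 2.78 in IFE basal-like cells, and 8.07 and 6.01 in sebaceous gland-like cells. The same 2 genes were thus counted at different proportions in different epithelia, and the proportion in HF-SC-like cells was nearly equal in both mice. Across the 28 points (14 populations in 2 libraries) log2(CPM + 1) of Itga6 and Itgb4 had a Pearson r of 0.877, the highest among all pairs of members. These points share 2 libraries, and populations from 1 library share its depth and free RNA.

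**Figure D2:**
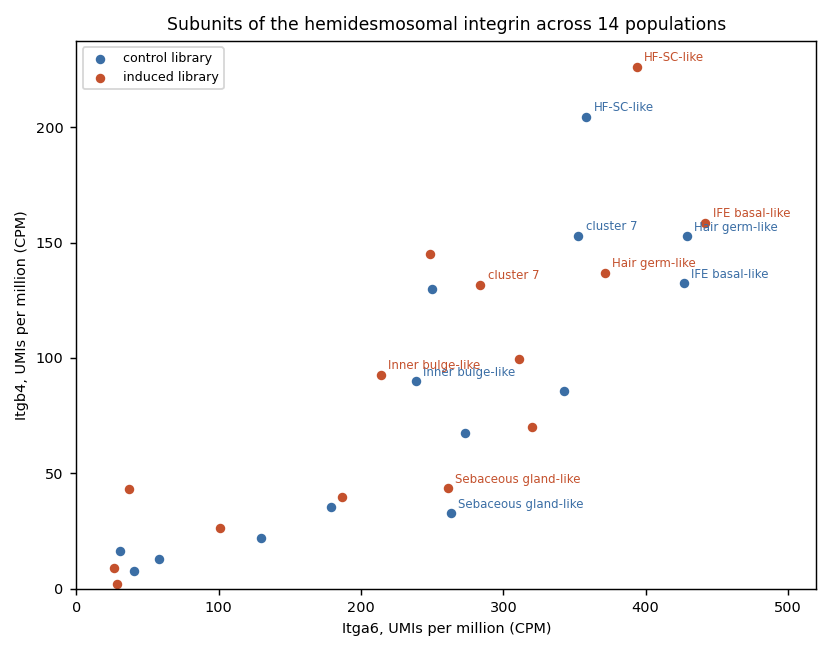
Itga6 against Itgb4 in 14 populations, both in CPM on linear axes, 1 point per population and library (blue control, orange induced). HF-SC-like cells lie highest on the Itgb4 axis, and sebaceous gland-like cells combine 263 and 261 CPM of Itga6 with 32.6 and 43.4 CPM of Itgb4.

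Itgb1 (chr8:128685654-128733579), the common β subunit of the collagen and laminin receptors, was highest in IFE basal-like cells at 473 CPM in the control and 410.1 CPM in the induced library. Cluster 7 was next at 446 and 371 CPM, and the ranges overlap, so the leading populations are not separated. Itgb1 was also high outside the epithelium, at 313 and 326 CPM in fibroblast-like and 269 and 317 CPM in dermal papilla-like cells. The lowest levels were in IFE suprabasal-like cells, at 53.8 and 40.3 CPM. The populations at either end of the order differed by 9.38-fold in mean level.

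Its α partners varied more between populations, by 33.3-fold for Itga2 and 43.7-fold for Itga3. Itga2 (chr13:114833081-114932100), the collagen-binding α subunit, stood at 199 and 114 CPM in IFE basal-like cells, 147 and 114 CPM in cluster 3, and 148 and 109.6 CPM in hair germ-like cells, which are not separated by their ranges. It was 90.2 and 83.0 CPM in HF-SC-like cells and 12.7 and 7.49 CPM in IFE suprabasal-like cells. Itga3 (chr11:95044475-95076844), the α subunit of the laminin receptor α3β1, was highest in hair germ-like cells at 95.5 and 67.8 CPM, and its range there overlapped that of IFE basal-like cells (64.8 and 72.6 CPM). IFE suprabasal-like cells had 3.63 and 3.66 CPM of Itga3.

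Itgav (chr2:83722303-83806917), the αv subunit, was the most evenly spread member. Its mean level differed by 2.61-fold between the highest and lowest of the 14 populations, and 12 of 13 pairs of neighbours overlapped. IFE basal-like cells had 125 and 117 CPM, fibroblast-like cells 111 and 117 CPM, and sebaceous gland-like cells 54.6 and 38.1 CPM. IFE suprabasal-like cells had 76.2 and 74.7 CPM, a smaller step down from IFE basal-like cells than for Itga6, Itgb1 or Itgb4.

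The β partners of αv differed in where they were counted most. Itgb5 (chr16:33829665-33949338) stood at 139 CPM in control and 192 CPM in induced fibroblast-like cells, against 37.4 and 51.4 CPM in dermal papilla-like and 26.4 and 30.1 CPM in IFE suprabasal-like cells. Itgb6 (chr2:60598292-60722603) was highest in cluster 7, at 94.2 and 95.6 CPM, with IFE basal-like cells next at 91.7 and 69.8 CPM and hair germ-like cells far below at 12.8 and 17.04 CPM. With coarser clusters (Louvain resolution 0.4) IFE basal-like cells led for Itgb6. Itgb8 (chr12:119162803-119238276) stood at 27.3 and 35.01 CPM in sebaceous gland-like and at 21.6 and 37.8 CPM in hair germ-like cells, whose ranges overlap. The leading population for Itgb8 depended on the processing, being hair germ-like cells with a mitochondrial limit of 5%, cluster 7 without the upper limit on genes, and fibroblast-like cells by the mean of cell CPM. It had only 3 control and 6 induced UMIs in IFE basal-like cells, or 0.265 and 0.790 CPM. IFE basal-like cells thus ranked near the top of the order for Itgb6 and last for Itgb8.

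In HF-SC-like cells the β1 and αv subunits were lower in the induced mouse and the hemidesmosomal pair was not. Itgb1 was counted 1617 times in control and 1072 times in induced cells, or 463 CPM (441 to 486) against 309.9 CPM (292 to 329). The intervals are far apart, and the log2 ratio was -0.58 (-0.69 to -0.47). Itgav went from 86.8 to 65.1 CPM, a log2 ratio of -0.42 (-0.67 to -0.16).

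Itga6 and Itgb4 were slightly higher in the same cells, with log2 ratios of 0.14 (0.024 to 0.25) and 0.15 (-0.0020 to 0.29). Itga2 (-0.12), Itga3 (0.10), Itgb6 (-0.094) and Itgb8 (0.26) had intervals that included 0. Itgb5 went from 67 to 86 UMIs, a log2 ratio of 0.37 with an interval from -0.10 to 0.86.

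For counts, a log2 ratio of at least 0.32 in either direction (the fold used below) in a gene with at least 100 UMIs over both libraries was used in place of a test. In HF-SC-like cells 2 of 9 members were past it downward, Itgav and Itgb1, where 13.2% of 5680 genes were. Upward there was 1 of 9, Itgb5, where 21.1% of genes were, so the upward count is at or under that of all genes. The share of past-fold genes that were higher was 61.4% with population totals and 47.6% with a median-of-ratios size factor, under which Itgb5 was no longer past the fold. The log2 ratio of Itgb1 lay between -0.65 and -0.46 under 14 alternatives and that of Itgav between -0.82 and -0.36. These alternatives included cluster 2 alone but not cluster 19 alone. Cluster 19, the smaller of the clusters in the HF-SC-like class, had 35 control and 99 induced UMIs of Itgb1 and a log2 ratio of 0.30 (-0.26 to 0.91), whereas cluster 2 had -0.56 (-0.68 to -0.44).

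Hair germ cells are the progenitors that start hair growth. In the hair germ-like class as a whole, the receptors for laminin and collagen on the β1 side were lower in the induced mouse. In the same class 2 β partners of αv were higher, but its clusters, given below, differed in direction for Itgb8. Itgb1 was counted 622 times in control and 533 times in induced cells, or 274 CPM against 197 CPM, with a log2 ratio of -0.47 (-0.64 to -0.30). Itga3 went from 95.5 to 67.8 CPM (-0.49, -0.79 to -0.20) and Itga2 from 148 to 109.6 CPM (-0.43, -0.66 to -0.20). None of these 3 ratios had an interval that reached 0. With a mitochondrial limit of 5%, which kept 58 control and 49 induced hair germ-like cells, Itgb1 stayed lower (-0.67) and Itgb5 higher (0.56), but Itga2 (0.23), Itga3 (0.092) and Itgb8 (-0.085) changed direction, and 1 member was past the fold used for counts downward and 0 upward.

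Itgb8 went from 49 to 102 UMIs in hair germ-like cells, or from 21.6 to 37.8 CPM, a log2 ratio of 0.80 (0.30 to 1.33). Itgb5 went from 44 to 81 UMIs, with 0.62 (0.084 to 1.20). Itga6 was somewhat lower at -0.21 (-0.34 to -0.080), and Itgb4 at -0.16 (-0.37 to 0.059) and Itgav at 0.13 (-0.20 to 0.47) had intervals that included 0.

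Downward 3 of 8 members were past the fold in hair germ-like cells, where 19.4% of 4721 genes were, and upward 2 of 8, where 17.8% were. The class joins a pair of clusters. Cluster 11 held 150 control and 111 induced cells and cluster 15 held 48 and 99, and Itga2 stood at 172 and 158 CPM in cluster 11 but at 42.5 and 39.3 CPM in cluster 15. Within cluster 11 the log2 ratios were -0.13 for Itga2, -0.28 for Itga3, -0.27 for Itgb1 (-0.46 to -0.085) and 1.17 for Itgb8 (0.51 to 1.88). Within cluster 15 they were -0.14, -0.58, -0.38 (-0.80 to 0.075) and -0.22 (-0.99 to 0.64). For Itga2 and Itgb1 the ratios within both clusters were smaller in size than that of the class. The clusters made up different shares of the class in each mouse, and the part of that mix in the class ratios was not tested. Smooth muscle markers summed to 57.7 CPM in control and 342 CPM in induced hair germ-like cells and cycling markers to 14.97 and 52.2 CPM. Their part in these ratios was not tested beyond leaving out cells with a smooth muscle UMI, which gave -0.50 for Itgb1 and 0.80 for Itgb8.

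**Figure D3:**
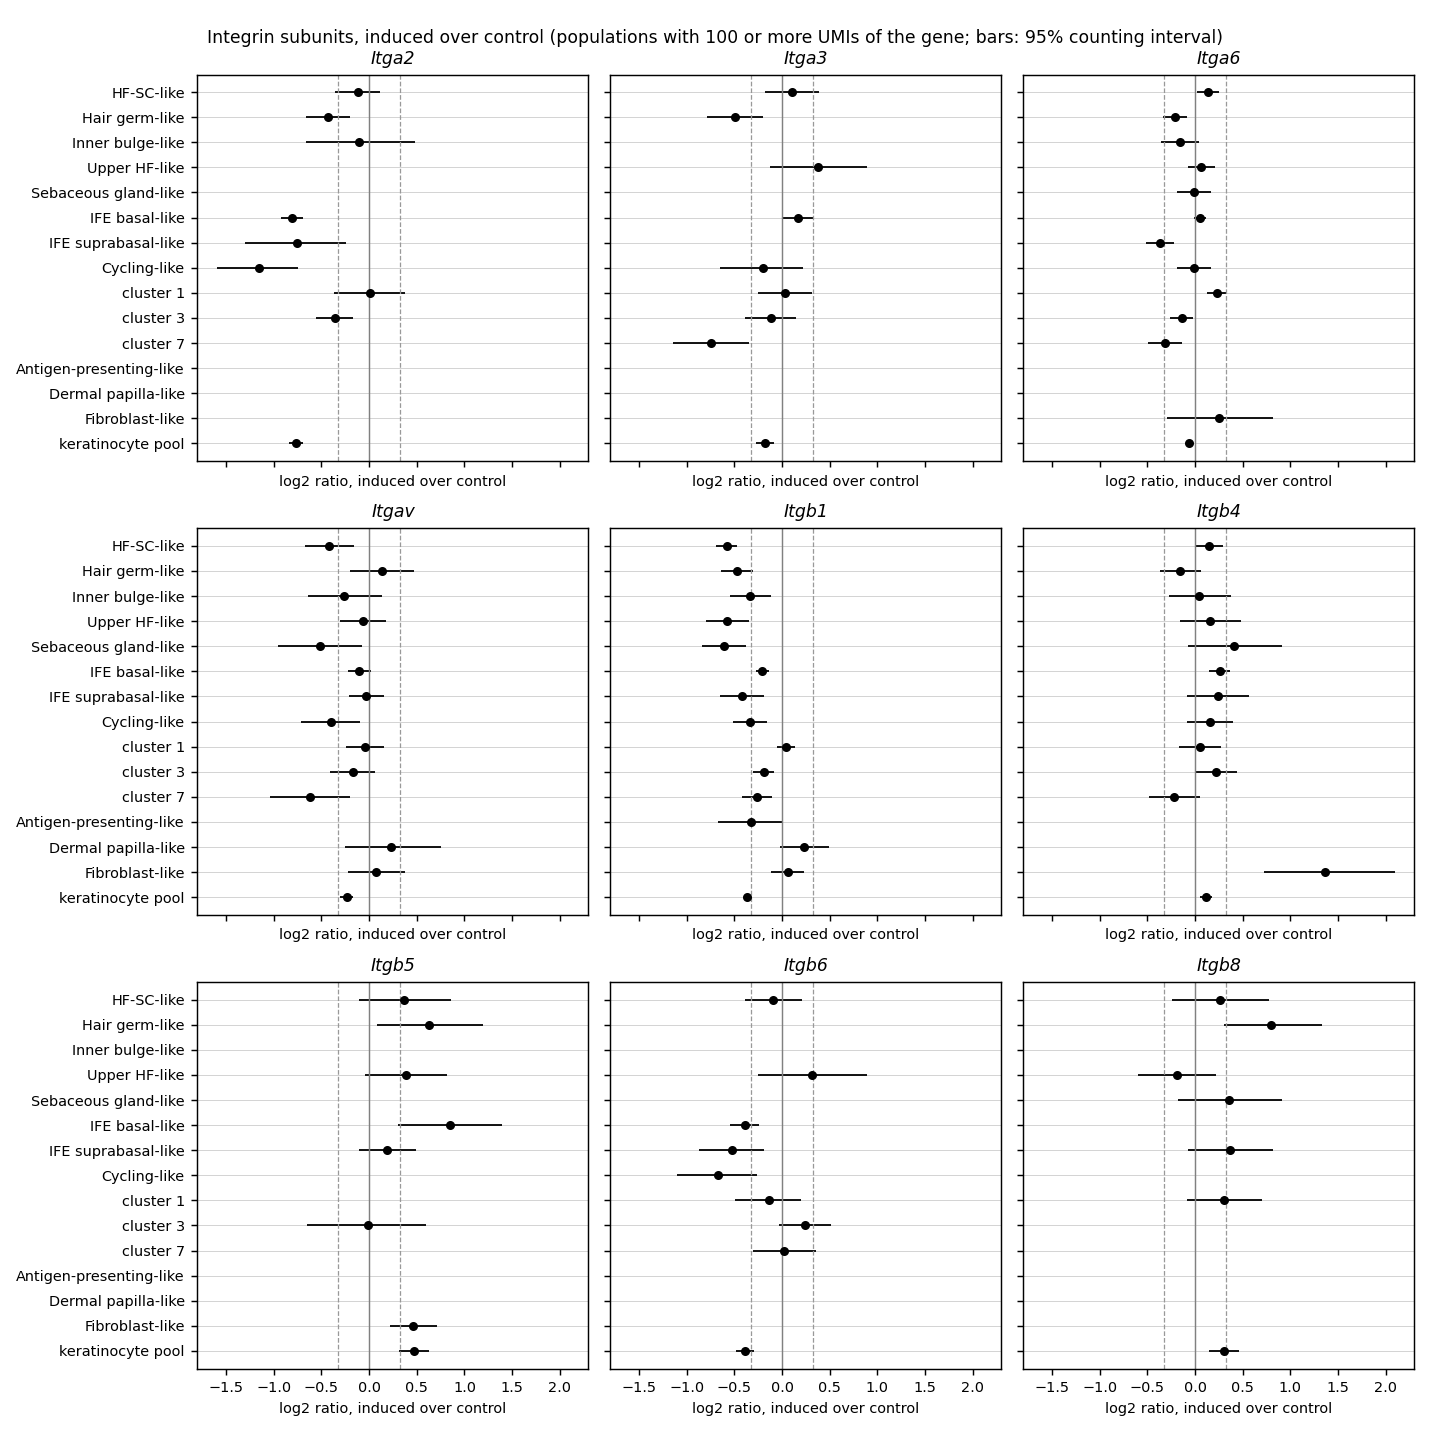
Log2 ratio, induced over control, of each subunit in every population where it had at least 100 UMIs, and in the keratinocyte pool, with 95% counting intervals as bars and dashed lines at log2 ratios of -0.32 and 0.32. For Itgb1 11 of 14 populations lie below 0, and for Itgb4 10 of 12 lie above 0.

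In IFE basal-like cells the collagen-binding subunit was lower in the induced mouse. Itga2 was counted 2254 times in the control and 862 times in the induced library, or 199 CPM (191 to 207) against 114 CPM (106 to 121), a log2 ratio of -0.81 (-0.92 to -0.69). Itgb6 went from 91.7 to 69.8 CPM (-0.39, -0.55 to -0.24) and Itgb1 from 473 to 410.1 CPM (-0.21, -0.27 to -0.14). In all 3 the control was higher and the intervals of the levels did not overlap.

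The hemidesmosomal β4 subunit went the other way in these cells. It stood at 132 CPM (126 to 139) in the control and 159 CPM (149.9 to 168) in the induced library, with a ratio of 0.26 on the log2 scale (0.15 to 0.37). Itga6 had 0.050 (-0.014 to 0.11). Itgb5, at 54 control and 65 induced UMIs, had 0.84 (0.30 to 1.39). Past the fold there were 2 of 8 members downward, Itga2 and Itgb6, where 8.71% of 7839 genes were, and 1 of 8 upward, Itgb5, where 13.8% were. The share of past-fold genes that were higher was 61.3% with population totals and 49.1% with the size factor. Of the clusters in the class, cluster 0 had a log2 ratio of -0.76 (-0.88 to -0.65) for Itga2 and cluster 12, with 56 control and 47 induced UMIs, had -0.12 (-0.71 to 0.47).

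Most members, Itgb5 and Itgb8 excepted, were fewer in IFE suprabasal-like than in IFE basal-like cells. In the suprabasal class 4 of 8 members were past the fold downward, Itga2, Itga6, Itgb1 and Itgb6, where 9.26% of 7017 genes were. Upward there was 1 of 8, Itgb8, where 12.2% were. The clusters of the suprabasal class differed from each other in the ratio between the mice. In cluster 9 Itgb1 stood at 105 CPM in the control and 66.0 CPM in the induced library. Cluster 6 (237 control and 209 induced cells) had 9.87 and 18.97 CPM. That cluster had 5 IFE suprabasal and 6 upper HF markers raised, so levels of the class may not be those of suprabasal epidermis alone. Cycling-like cells had 79.5 CPM of Itga2 in the control and 35.5 CPM in the induced library (-1.16, -1.60 to -0.75), and the 5 cells with most Itga2 UMIs held 29.4% and 44.3% of them. In upper HF-like cells 1 of 8 members was past the fold downward (7.4% of all genes) and 2 of 8 upward (10.4%). In sebaceous gland-like cells 2 of 5 were past it downward (21.6%) and 2 of 5 upward (13.3%). Inner bulge-like cells had 1 of 5 downward (10.4%) and 0 upward (14.7%). Dermal papilla-like cells had 0 of 2 in either direction (20.4% downward and 15.7% upward).

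In fibroblast-like cells, the matrix-producing cells of the dermis, Itgb1 and Itgav hardly differed, with 0.058 (-0.12 to 0.23) and 0.077 (-0.22 to 0.37). Itgb5 was counted 211 and 375 times, or 139 CPM (121 to 159) against 192 CPM (173 to 213), a log2 ratio of 0.47 (0.22 to 0.72). Itgb4, an epithelial subunit, had 25 control and 84 induced UMIs there, with a log2 ratio of 1.37 (0.73 to 2.09). Downward 0 of 5 members were past the fold, where 10.4% of 4085 genes were, and upward 2 of 5, where 18.5% were. The share of past-fold genes that were higher was 64.1% with population totals and 45.6% with the size factor.

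Measures of free RNA and of other cells stand beside the Itgb4 value, and their part in it was not tested except as given here. The 5 cells with most Itgb4 UMIs held 56% of them in the control and 36.9% in the induced library. Krt14, which fibroblasts lack, stood at 842 and 424 CPM in these cells, and Itgb4 UMIs per 1000 Krt14 UMIs were 19.6 and 102 there against 9.63 and 12.8 in the keratinocyte pool. Schwann cell markers, all 5 of them detected, summed to 1187 and 1701 CPM. Without cells holding a Schwann marker UMI the log2 ratio of Itgb4 was 1.38. That setting kept 119 control and 157 induced cells, so the value rests on fewer UMIs. In it 1 member met the rule upward, where 2 did with all fibroblast-like cells.

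Over the keratinocyte pool, the largest log2 ratio was that of Itga2, with 90.6 CPM (87.9 to 93.4) in the control and 53.2 CPM (51.0 to 55.5) in the induced library, or -0.77 (-0.84 to -0.69). Itgb6 had -0.39 (-0.49 to -0.30), Itgb1 -0.37 (-0.40 to -0.33), Itgav -0.23 (-0.30 to -0.17), Itga3 -0.18 (-0.27 to -0.085) and Itga6 -0.062 (-0.097 to -0.026). On the higher side were Itgb4 at 0.12 (0.055 to 0.18), Itgb8 at 0.30 (0.14 to 0.46) and Itgb5 at 0.47 (0.31 to 0.63). Past the fold were 3 of 9 members downward, Itga2, Itgb1 and Itgb6, where 6.41% of 11104 genes were, and 1 of 9 upward, Itgb5, where 17.1% were. The share of past-fold genes that were higher was 72.8% with population totals and 55.8% with the size factor.

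The pool mixes populations in other proportions in each library, with inner bulge-like cells at 167 control and 378 induced and IFE basal-like cells at 718 and 463, so within-population ratios stand beside it. For Itga2 the median over the 8 populations with at least 100 of its UMIs was -0.40, and the ratio was below 0 in 7 of them. For Itgb1 the median over 14 populations was -0.33, from -0.61 in sebaceous gland-like to 0.23 in dermal papilla-like cells, and it was below 0 in 11. Itgb4 was above 0 in 10 of 12 populations with a median of 0.16, Itgb5 in 6 of 7 with 0.38, and Itgb8 in 5 of 6 with 0.33. Itga6 had a median of -0.011 over 12 populations. For Itga3 the median over 8 populations was -0.040, with 4 below 0 and 4 above, so its lower pool ratio was not shared by most populations. Itgb6 had a median of -0.12 over 8 populations, 5 below 0 and 3 above. Itgav had -0.10 over 13, 10 below 0 and 3 above. The populations of 1 mouse share its library, so these counts are not repeats of the comparison.

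Set beside the seed matches, the members with ATGAAGG in the UTR did not share a direction in the pool. Itga6 was slightly lower, Itgb6 was lower and Itgb8 was higher in the induced mouse. Of the 6 members with neither 7-base match, Itga2, Itga3, Itgav and Itgb1 were lower in the pool and Itgb4 and Itgb5 were higher. These members are grouped by sequence only, and the paper lists Itgav among the mRNAs bound by the microRNA. Whether binding had a part in these ratios was not tested. Within populations Itga6 and Itga3 had median log2 ratios of -0.011 and -0.040, with populations in both directions, as had Itgb6 (-0.12).

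Shares of cells with a UMI were taken at an equal depth of 5000 UMIs, drawn at random from each cell, and cells below that depth were not used. This left out 24 control and 14 induced HF-SC-like cells, 9 and 5 hair germ-like cells and 10 and 11 IFE basal-like cells. In HF-SC-like cells 82.2% of 332 control cells (77.7 to 86.2%) had an Itgb1 UMI against 73.0% of 333 induced cells (67.9 to 77.7%). In hair germ-like cells these shares were 70.4% (63.3 to 76.8%) in the control and 50.7% (43.7 to 57.8%) in the induced library, and their intervals do not overlap. Without thinning the shares were 91.6% and 87.0% in HF-SC-like and 87.9% and 80.5% in hair germ-like cells, so the control was higher in both populations either way.

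For Itga2 in IFE basal-like cells the share was 49.9% (46.1 to 53.6%) in the control and 35.6% (31.2 to 40.2%) in the induced library. Itga6 in hair germ-like cells went from 83.6% (77.5 to 88.6%) to 71.2% (64.5 to 77.3%), also without overlap. Itgb4 in HF-SC-like cells was found in 59.0% and 64.6%, with overlapping intervals. Without thinning these shares were 72.3% and 56.8% for Itga2, 92.9% and 88.6% for Itga6, and 77.0% and 83.6% for Itgb4. T cells should lack Itgb4, and 0 of 10 control and 0 of 16 induced T cell-like cells had a UMI of it. In so few cells, 3 cells would make 30% and 18.8%. Without thinning, control T cell-like cells had 30.3 Itgb4 UMIs per 1000 Krt14 UMIs, and induced cells had 0. With 33 Krt14 UMIs in all, the control rate rests on very few Itgb4 UMIs and is not a measured level. Itgb4 was thus not absent from all control T cell-like cells. T cell-like cells were few and shallow before thinning, with medians of 4470 and 5113 UMIs against 9711 and 9922 in HF-SC-like cells.

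**Figure D4:**
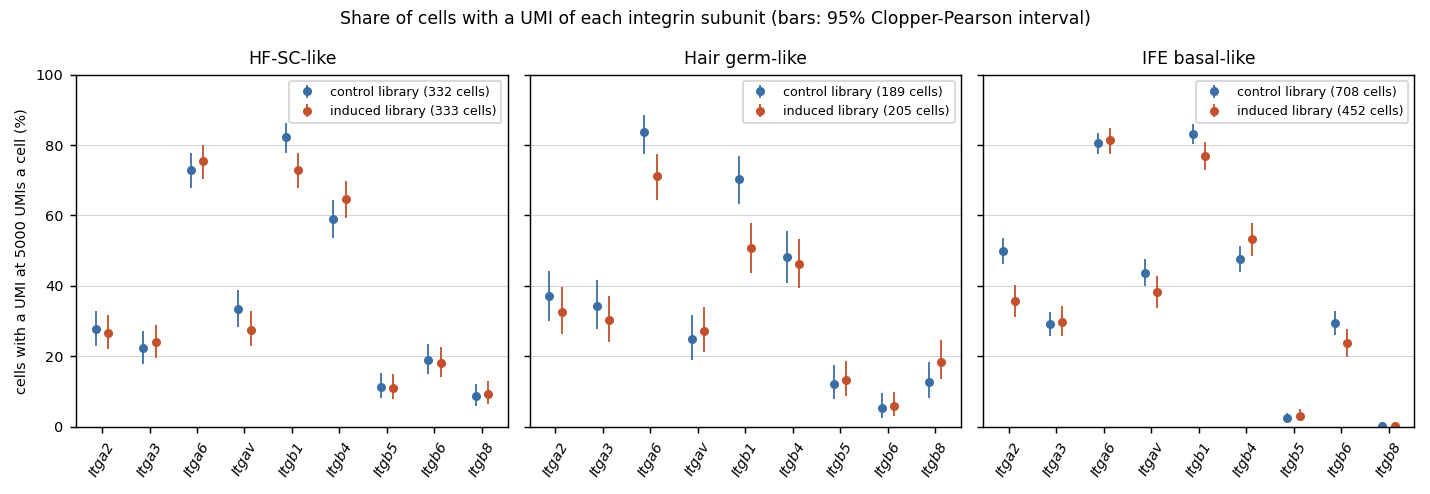
Share of cells with at least 1 UMI of each subunit at 5000 UMIs a cell (percent, axis from 0 to 100) in HF-SC-like, hair germ-like and IFE basal-like cells, with 95% Clopper-Pearson intervals as bars. Itgb1 was found in 70.4% of control and 50.7% of induced hair germ-like cells.

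At the same depth, cells with UMIs of both subunits of a pair were counted and set beside the product of the single shares. Among HF-SC-like cells 44.3% of control and 47.4% of induced cells had UMIs of both Itga6 and Itgb4, where the products of the single shares were 43.0% and 48.7%. For Itga3 with Itgb1 in hair germ-like cells the values were 29.1% and 16.6%, with products of 24.2% and 15.3%. For Itga2 with Itgb1 in IFE basal-like cells they were 44.8% and 29.9%, with products of 41.5% and 27.4%. In IFE suprabasal-like cells both Itga6 and Itgb4 were found in 7.59% of control and 6.78% of induced cells, above the products of 4.55% and 3.20%. Control upper HF-like cells had both Itga3 and Itgb1 in 4.38%, with a product of 2.27%. Pairs of Itgav with Itgb5 or Itgb8 were in under 5% of HF-SC-like, hair germ-like and IFE basal-like cells of both libraries.

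Integrins act through cytoplasmic linkers that join β tails to actin. In HF-SC-like cells 20 of 28 linkers had at least 100 UMIs. Past the fold downward were 6 of the 20, where 13.2% of all genes were, and upward 3, where 21.1% were, with a median log2 ratio of -0.045 where all genes tested had 0.051. Furthest down were Tgfb1i1 (Hic-5, a focal adhesion adaptor) from 26.9 to 8.38 CPM, Vcl (vinculin, which binds talin and actin) from 131 to 69.7 CPM with a log2 ratio of -0.91 (-1.14 to -0.68), and Fermt2 (kindlin-2, an integrin activator) at -0.65. Upward were Tns2 (tensin-2) at 0.42, Fermt1 (kindlin-1, the epithelial integrin activator) at 0.36 and Rsu1, a partner of the ILK complex, at 0.35. The interval of Tns2 included 0 (-0.032 to 0.87), and those of Fermt1 (0.055 to 0.66) and Rsu1 (0.072 to 0.63) did not. In hair germ-like cells, where 19.4% of all genes were past the fold downward and 17.8% upward, 2 of 17 linkers were past it downward and 2 upward. Downward were Vcl at -0.55 (-0.81 to -0.31) and Tns4 at -0.33. Upward were Bcar1 at 0.49 (0.021 to 0.97) and Ilk (integrin-linked kinase) at 0.46, whose interval included 0 (-0.11 to 1.06).

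All 6 hemidesmosome partners were well counted. In HF-SC-like cells Dst, which encodes the keratin-binding plaque protein BPAG1, went from 677 to 529 CPM (-0.35, -0.44 to -0.27), and Cd151, a tetraspanin that binds α3 and α6 integrins, from 103 to 138 CPM (0.43, 0.23 to 0.63). The other 4 were not past the fold, so 1 of 6 was past it in each direction, where 13.2% of all genes were downward and 21.1% upward, and the list median was 0.11. In hair germ-like cells Erbin, which binds the β4 tail, was the only partner past the fold, at 0.58 (0.24 to 0.92), where 17.8% of all genes were past it upward.

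Ligands of the members differed in both directions. Among 16 of 23 ligand genes with enough UMIs in HF-SC-like cells, 4 were past the fold downward, where 13.2% of all genes were, and 5 upward, where 21.1% were, with a median of 0.023. Thbs1, encoding thrombospondin-1, a matrix protein that also activates TGF-β, went from 3153 to 875 CPM with a log2 ratio of -1.85 (-1.91 to -1.79). Ccn1 (also Cyr61, a secreted αv ligand) went from 7379 to 4364 CPM (-0.76), whereas the related Ccn2 (Ctgf) went from 251 to 529 CPM (1.07, 0.96 to 1.19).

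Lama5, the α chain of laminin-511, had 0.74 and Fbln1, a basement membrane glycoprotein, 0.73 in HF-SC-like cells. In hair germ-like cells 5 of 17 ligands were past the fold downward (19.4% of all genes) and 3 upward (17.8%). Thbs1 (-1.17) and Ccn1 (-0.94) led downward, and Ccn2 (1.61), Lamc1 (0.76) and Hspg2 (perlecan, 0.32) upward. The interval of Hspg2 included 0 (-0.15 to 0.81). Postn, which is on this list, is also one of the HF-SC markers.

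Listed genes of TGF-β activation and signalling were past the fold downward in 3 of 7 cases in HF-SC-like cells, where 13.2% of all genes were, and upward in 0, where 21.1% were. These were Ltbp2, an LTBP-family matrix protein, from 61.6 to 31.5 CPM (-0.96), the receptor Tgfbr2 (-0.72) and Smad7, an inhibitor of the pathway (-0.49). In hair germ-like cells 1 of 6 was, Tgfbr2 at -0.58, where 19.4% of all genes were. Of 18 other integrins 1 reached 100 UMIs in HF-SC-like cells and 1 in hair germ-like cells, and neither was past the fold. The list medians describe these libraries, and no list was tested against others.

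**Figure D5:**
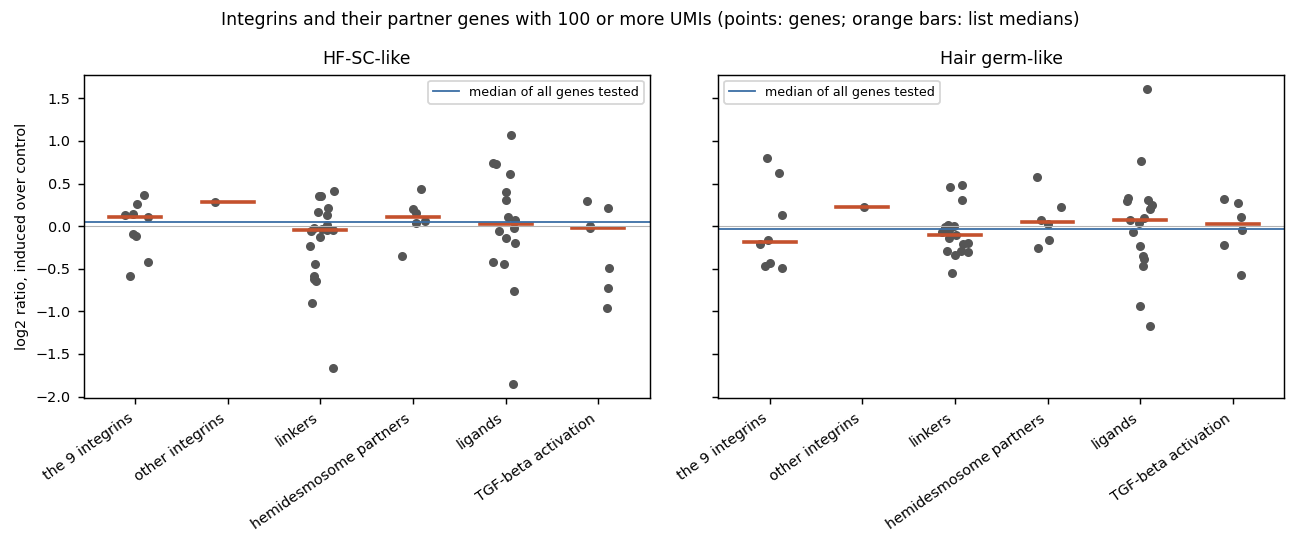
Log2 ratio, induced over control, of the 9 integrins and of 5 lists of related genes in HF-SC-like and hair germ-like cells, 1 grey point per gene with at least 100 UMIs, with orange bars at list medians and a blue line at the median of all genes tested (0.051 and -0.031). The linkers have a median of -0.045 in HF-SC-like cells, with Tgfb1i1 and Vcl furthest down.

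The genes whose levels across the 28 points were most like those of each member were found among 8866 genes with at least 500 UMIs, by Pearson r of log2(CPM + 1). Itga6 was most like Fermt1 (r = 0.972), the kindlin-1 gene, and Trp63 (0.957), which encodes p63, the transcription factor of stratified epithelium. Itgb4 was most like Lama3 (0.895), a chain of its ligand, and Itga3 like Cdc42ep3 (0.919) and Cdh3 (0.915), the P-cadherin gene, which is on the hair germ marker list. The leading r was 0.889 for Itgb6 (Actn4), 0.888 for Itgb5 (Kremen1), 0.869 for Itgb8 (Msrb3), 0.845 for Itga2 (Mark3), 0.801 for Itgb1 (Plod3) and 0.785 for Itgav (Il1rl2). Among the members, Itga6 and Itgb5 had the lowest r, at -0.43.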

How the data were processed

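Dissociated back skin of 1 control and 1 induced mouse was profiled with the 10x Genomics assay. The authors counted reads with Cell Ranger (matrix header version 3.0.1, build mm10 per the labels) and deposited raw UMI counts per gene and barcode, without normalization. Cells with more than 200 and fewer than 5000 genes and under 10% mitochondrial UMIs were kept, as the methods state. Free RNA was not removed, and doublets were kept because Scrublet's automatic threshold (scanpy 1.11.5) marked 4 and 5 barcodes; an alternative left out the 165 and 145 highest-scoring barcodes. Libraries were integrated and clustered in Seurat 5.3.0 (2000 variable genes without the members and listed genes, 30 dimensions, Louvain resolution 0.8, 25 clusters).

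A cluster was named where at least 3 markers of a class were raised (20 or more UMIs, in at least 10% of its cells, at least 2-fold), by the class with most such markers among its top 10 genes and then overall. HF-SC-like cells also needed Cd34. A cluster of shallow cells needed a marker among its top genes. The pool took unnamed clusters with Krt14 at 2000 CPM or more. This rule was set after clusters were seen, and the members and lists were chosen with earlier results of these data known.

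UMIs were summed per population and library, and log2 ratios used a pseudocount of 0.5 UMIs. Ratios of all members are given for HF-SC-like cells and the pool. For hair germ-like cells they are given where at least 100 UMIs were counted. For other populations only some member ratios are given. The text also names up to 3 genes in each direction from each list and the genes most like each member. A listed gene that the rule also names is not reported here. Intervals are at 95%, and a count of 0 is given with the share that 3 cells would make. Alternatives changed the cell filter, clustering, doublets, scaling, the fold and UMI thresholds, thinning and the make-up of populations. The code was tested on simulated data.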

Additional observations from a re-analysis of the deposited data

Results flagged for a closer look

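Itgb1 in IFE suprabasal-like cells had ratios on opposite sides of 0 in the clusters that make up the class. In cluster 6 it was counted 38 times in the control and 65 times in the induced library, a log2 ratio of 0.94 (0.34 to 1.56). In cluster 9 it was counted 347 and 188 times, a log2 ratio of -0.67 (-0.94 to -0.41). With 1 library per mouse the difference between the clusters was not tested. Cluster 6 had 6 upper HF and 5 IFE suprabasal markers raised.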

How the results depend on the processing

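Of 1137 recomputed log2 ratios of the members, 1068 stayed within the counting interval, 58 moved outside it and 11 that were past the fold turned sign. Of 130 member counts 105 stayed within 1.5 times and 25 moved. A fold of 1.5 left 0 members lower and 0 higher in HF-SC-like cells, 0 lower in hair germ-like, 1 lower in IFE basal-like, 1 higher in fibroblast-like cells, and 1 lower and 0 higher in the pool. A mitochondrial limit of 5% left 0 higher in HF-SC-like and IFE basal-like cells, 1 higher in fibroblast-like cells, and 1 lower and 0 higher in hair germ-like cells. It kept 58 control and 49 induced hair germ-like cells, in which Itga2 had a log2 ratio of 0.23, Itga3 0.092 and Itgb8 -0.085. Leaving out Scrublet barcodes gave 0 higher in HF-SC-like and 1 in fibroblast-like cells, and leaving out cells with Schwann transcripts 1 in fibroblast-like cells. The size factor gave 0 higher in HF-SC-like cells. The mean of cell CPM gave 0 there and 1 higher in hair germ-like cells, as did gating single cells on markers. Cluster 11 alone gave 0 lower and 0 higher, cluster 15 alone 0 higher (Itgb8 -0.22), cluster 12 alone 0 lower and 0 higher (Itgb6 0.20) and cluster 0 alone 0 higher. In suprabasal cluster 6 alone Itga2 had 0.037, Itgb1 0.94 and Itgb6 0.65. Itgb8 in suprabasal cells had -1.03 at resolution 0.4 and -1.01 in cluster 9 alone, and Itgb4 in sebaceous gland-like cells -0.058 without the upper gene limit. Single clusters hold fewer UMIs, so fewer members reach the minimum of 100; otherwise the cause was not tested. The settings that split classes, the second Louvain seed, and those that left out Schwann, smooth muscle or top cells were chosen after seeing the data. Cluster membership shifted with the seed. No paired analysis was possible because each group is 1 library.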

Other observations

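Populations with under 30 cells in a library were left out of the comparisons. Endothelial-like cells (7 control and 14 induced) had 18 and 25 UMIs of Itga6 and 7 and 15 of Itgb4. T cell-like cells had 32 and 27 UMIs of Itgav, or 243 CPM (166 to 343) and 189.8 CPM (125 to 276), and no UMI of Itgb6 or Itgb8 in either library. Cluster 18, with 16 control and 77 induced cells, had 2 and 32 UMIs of Itgb8. It had 6 T cell markers raised (Cd3d, Cd3e, Cd3g, Trac, Cd2 and Nkg7) and Cd8a and Cd8b1 among its top genes, but stayed unnamed because its median depth was low (3818.5 and 4492 UMIs) and none of the listed markers was among its top 10 genes.

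Krt14, which cells outside the epithelium should lack, stood higher in the control library in antigen-presenting-like cells (1458 against 398 CPM) and dermal papilla-like cells (1023 against 419 CPM). Itga6 in antigen-presenting-like cells was 58.1 CPM in the control and 28.6 CPM in the induced library, and 39.9 and 72 of its UMIs were counted per 1000 Krt14 UMIs there, against 30.5 and 35.9 in the keratinocyte pool. The part of free RNA in these values was not tested.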
